A study of Homo sapiens with 10 samples.

Results

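Of the 99 protein-coding genes of the non-HOX homeobox and paired box families, 47 carried at least 1 site of RNA 5-methylcytosine (m5C) in MDA-468 or MCF-10A cells. Members were all protein-coding genes of the RefSeq table (20056 in all) whose symbol is that of SIX3 or another gene of its family, or a PAX, LHX, ISL, NKX, IRX, MEIS, DLX, ALX, EMX, EN, EVX, GSX, LBX, MSX, OTX, PITX, PRRX, VAX, VSX, BARX, BARHL or POU family name with its number. The rule uses symbols and no measured value. MDA-468 is a line of human breast cancer cells and MCF-10A a line of human mammary epithelial cells that do not form tumours, and neither was treated. For each line the study made 2 MeRIP libraries, in which fragmented polyadenylated RNA was pulled down with an antibody against 5-methylcytosine, and 2 input libraries of the same fragments without the antibody. MCF-10A had 2 more MeRIP libraries, marked as technical replicates, and 1 culture description, which names the cancer line, is attached to all 10 samples. The files hold 1 merged site list for each line (8320 sites for MDA-468 and 5194 for MCF-10A) and the authors' differential table, so no value below has a replicate error and the lines are compared as lists.

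Homeobox genes encode transcription factors that share the homeodomain, a fold of helices whose last helix reads DNA, and paired box genes encode a further DNA-binding domain, with or without a homeodomain. They are grouped into classes by the domains they add: a POU domain, LIM zinc fingers, the further domain of SIX3 and its family or, in TALE proteins such as IRX and MEIS, a longer loop between helices. Most are known as regulators that set the identity of embryonic tissues such as eye, brain, limb, heart, thyroid and pancreas. Their genes often stand alone in long regions rich in CG dinucleotides.

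The codons of the last homeodomain helix show what most of the members have in common at the level of RNA, and how unequal they are in CG content. The motif searched reads TGGTT, any 4 bases, AA, any 2, G, any 2, G and any 1. It was sought in frame, on the sense strand only, in the coding part of the longest protein-coding GENCODE 29 transcript of each gene. The motif stood in 62 of the 99 members (62.6%), in all 39 HOX genes and in 190 of 19132 protein-coding transcripts (0.993%). Members whose codons there depart from these letters are not found by it, IRX1 among them. The windows of 42 nt below, read 5′ to 3′ in the transcript, hold the motif with 12 nt on each side, and capitals mark CG dinucleotides. They belong to members on which the results below turn, and the sites of the lists were not placed on these transcripts.
PAX6: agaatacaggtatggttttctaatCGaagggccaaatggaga
OTX1: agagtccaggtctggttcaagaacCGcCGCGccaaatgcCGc
SIX3: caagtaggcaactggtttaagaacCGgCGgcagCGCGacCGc
SIX4: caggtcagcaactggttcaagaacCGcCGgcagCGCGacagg
POU2F1: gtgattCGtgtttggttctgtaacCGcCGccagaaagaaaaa
POU3F1: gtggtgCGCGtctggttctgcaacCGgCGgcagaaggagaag
POU5F1: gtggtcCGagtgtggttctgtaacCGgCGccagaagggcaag
The window of PAX6 holds 1 CG dinucleotide and that of SIX3 holds 5. Over the 59 windows the count ran from 0 to 7 with a median of 2, and the whole transcripts of members ranged from 0.80 CG per 100 nt in POU2F1 to 14.97 in NKX1-1, a member with no site in either list.

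Many more of these genes carried a site in MDA-468 than in MCF-10A. A site stood in 46 of the 99 members in the MDA-468 list (46.5%, exact 95% interval 36.4 to 56.8), where 22.4% of all protein-coding genes had one. In the MCF-10A list 14 members had a site (14.1%, 7.95 to 22.6), beside 15.2% of protein-coding genes, so the share in MCF-10A was near the background. Members with a site in MDA-468 only numbered 33 (33.3%, 24.2 to 43.5), against a background of 10.1%. Both lines had a site in 13 members (13.1%, against 12.3%), MCF-10A only in 1 (1.01%, against 2.87%), and either line in 47.5%, against 25.3%. These intervals cover the counting of genes only, and the difference between shares was not tested.

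**Figure D1:**
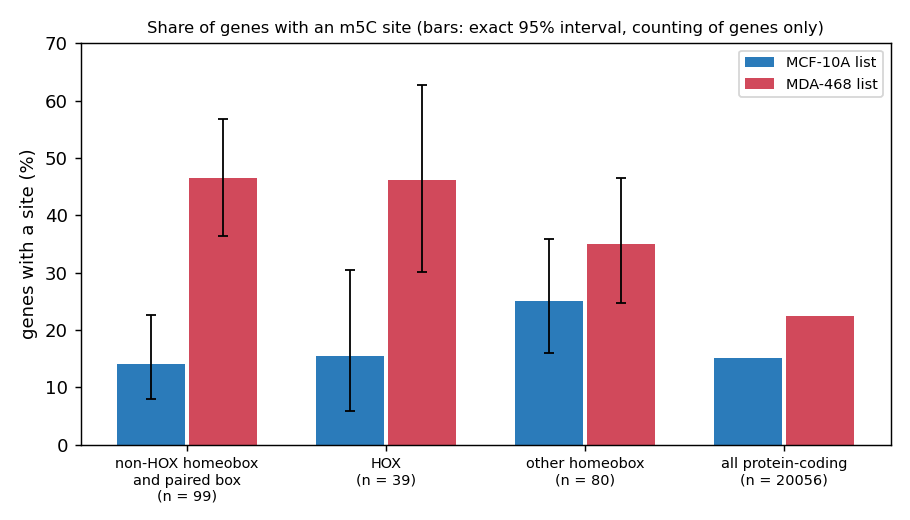
Percent of genes with at least 1 m5C site in the MCF-10A list (blue) and in the MDA-468 list (red) for the 99 non-HOX homeobox and paired box genes, the 39 HOX genes, 80 other homeobox genes and all 20056 protein-coding genes; the vertical lines are exact 95% intervals that cover the counting of genes only and are not drawn for all genes. The red bars of the first and second groups stand at 46.5% and 46.2%, against 22.4% for all genes, while the blue bars of the same groups stand at 14.1%, 15.4% and 15.2%.

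The lists differ in length and in the p-value at which they end, and this bears on the share in MDA-468. When the MDA-468 list was cut to the 5194 sites with the smallest p-values, 26 members kept a site (26.3%, against 15.8% of protein-coding genes). Of the 33 members marked in MDA-468 only, 16 kept a site in that shorter list, among them PAX6, PAX9, IRX1, IRX4, ISL2, LHX1, LHX2, NKX2-1, NKX2-5, NKX2-8 and OTX1. The share of members stayed above that of all genes, while the distance between them shrank. How many sites are called, and with which p-values, depends on sequencing depth, which is unknown, and a site does not measure how much of a transcript there is.

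The 46 marked members held 76 sites in MDA-468, and the 14 marked members held 14 sites in MCF-10A. No member had more than 1 site in MCF-10A (0 of 99, exact 95% interval 0 to 3.66%). Of all protein-coding genes 3.46% had 2 or more there, a share inside that interval. In MDA-468, 16 members had 2 or more (16.2%, exact 95% interval 9.53 to 24.9, against 6.6% of protein-coding genes). In the MDA-468 list cut to the length of the other, 8 members had 2 or more (8.08%, 3.55 to 15.3, against 3.49%), and PAX6 kept 3 of its 7 sites, POU2F2 kept 1 of 5 and POU3F1 kept 2 of 4. Sites per marked gene averaged 1.65 in the members and 1.48 over all marked protein-coding genes in MDA-468.

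**Figure D2:**
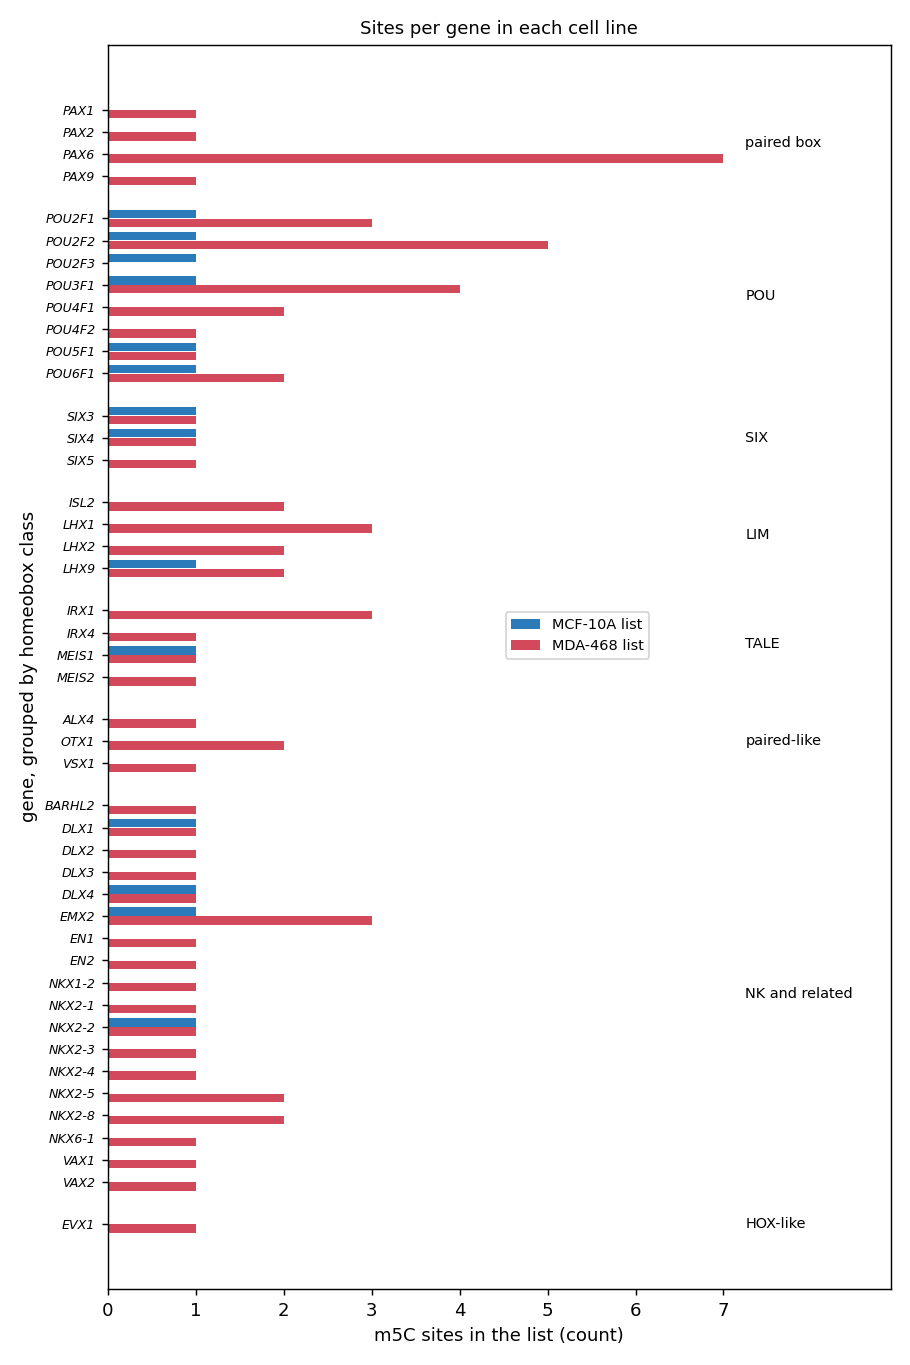
Number of m5C sites in the MCF-10A list (blue) and the MDA-468 list (red) for 45 of the 47 homeobox and paired box genes with a site, grouped by homeobox class. PAX6 has 7 red sites, POU2F2 has 5 and POU3F1 has 4, and no gene has more than 1 blue site.

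Among paired box genes, which act in the eye, kidney, thymus and skeleton, 4 of 9 had sites, all of them in MDA-468. PAX6, the regulator of eye and brain development, had 7 sites on the minus strand of chromosome 11 (coordinates here and below are hg19). Its p-values from the authors were 3.2e-16 at 31808739 to 31808949, 6.2e-09 at 31815016 to 31815234, 1.6e-10 at 31824505 to 31824595, 7.9e-11 at 31824655 to 31824715, 2.2e-09 at 31824805 to 31824865, 1.6e-21 at 31825015 to 31825375 and 7.9e-18 at 31832635 to 31832815. The 7 sites spread over 24077 nt of the gene, and those between 31824505 and 31825375 lie in a tight group in which the smallest gap is 59 nt. PAX6 was also the least CG-rich of the members marked in MDA-468 only, with 1.99 CG per 100 nt of transcript. PAX9, needed for thymus and teeth, had 1 site at 37132388 to 37132567 of chromosome 14 (p-value of the authors 2.5e-19). PAX1, a regulator of the axial skeleton, and PAX2, a kidney regulator, had 1 site each, with p-values of 5.4e-09 and 1.6e-06. PAX3, PAX4, PAX5, PAX7 and PAX8 had none.

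POU genes, whose proteins bind octamer-like DNA sequences, held 6 of the 14 member sites of MCF-10A, more than any other class. Of 15 POU genes, 7 had a site in MDA-468 and 6 in MCF-10A, and 5 had one in each. POU2F1 (also called OCT1), which is made in most cell types, had a site at 167389363 to 167389722 of chromosome 1 in MCF-10A (p-value 1e-130) and one inside it, at 167389423 to 167389632, in MDA-468 (1.6e-28). It had 2 further sites in MDA-468, with p-values of 1e-11 and 2.4e-07. POU2F2 (OCT2), known from B cells, had 1 site in MCF-10A at 42594243 to 42594453 of chromosome 19 (3.2e-26), and its 5 sites in MDA-468 ran from 42594243 to 42600299 with p-values from 4e-17 to 1.5e-07. POU3F1, a regulator of Schwann cells and keratinocytes, had 1 site in MCF-10A at 38510210 to 38510359 of chromosome 1 (2.5e-21) and 4 in MDA-468 within 1256 nt, whose p-values lay between 5e-16 and 6e-08. In both genes the MCF-10A site began at the same coordinate as an MDA-468 site, and the other sites of MDA-468 had no counterpart.

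POU5F1 (OCT4), the pluripotency factor, had its site at 31134097 to 31134541 of chromosome 6 in MCF-10A, where the p-value is listed at 0, and at 31134097 to 31134511 in MDA-468 (1e-103). This was the best MDA-468 site of all members, with rank 57 of 8320. POU5F1 has processed copies elsewhere in the genome that share its sequence, so reads counted at this site are uncertain. POU6F1 had sites at 51581765 to 51581974 of chromosome 12 in MCF-10A (5e-38) and at 51581825 to 51581974 in MDA-468 (6.3e-11), with a second MDA-468 site 9621 nt away (2.5e-24). POU2F3, the regulator of tuft cells, was the only member with a site in MCF-10A alone, at 120190266 to 120190415 of chromosome 11 (2.5e-15), which ranked 4718 of 5194 in that list. POU4F1 (2 sites) and POU4F2 (1 site), regulators of sensory and retinal neurons, had sites in MDA-468 only. The other 7 POU genes had no site.

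In the family of SIX3, 6 genes that act with EYA proteins in eye, muscle and kidney, SIX3 and SIX4 had a site in both lines and SIX5 in MDA-468 only (2.3e-09). The SIX4 site ran from 61178142 to 61178592 of chromosome 14 in MCF-10A, where its p-value is listed at 0, and from 61178172 to 61178562 in MDA-468 (1.3e-47). The SIX3 sites overlapped by 90 nt, at 45172267 to 45172563 of chromosome 2 in MCF-10A (6.3e-19) and at 45171792 to 45172356 in MDA-468 (4e-31). With 565 nt, the MDA-468 site of SIX3 was the longest of all member sites.

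The LIM homeodomain genes, which specify neurons and limb and endocrine tissue, had 4 marked members of 10, with 9 sites in MDA-468 and 1 in MCF-10A. LHX1, a kidney and head organizer, had 3 sites within 871 nt of chromosome 17 (2.3e-10, 2.3e-10 and 7.9e-12). ISL2, a motor neuron regulator, had the smallest p-value of the class in MDA-468, 1.3e-25 at 76630833 to 76631071 of chromosome 15, and a second site at 6.2e-07. LHX2 had 2 sites in MDA-468 only, 11233 nt apart, and LHX9 had 2 in MDA-468 and 1 in MCF-10A.

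Among the 9 TALE genes, IRX1, a regulator of neural and limb patterning, had 3 sites in MDA-468 on chromosome 5, at 3599640 to 3599850 (4e-17), 3599969 to 3600179 (3.2e-18) and 3601307 to 3601457 (2e-08). IRX4, known from the heart ventricle, and MEIS2, a HOX cofactor, had 1 site each in MDA-468 only (7.9e-13 and 7.9e-12). MEIS1, also a HOX cofactor, had 1 site in each line. The transcripts of IRX1 and IRX4 hold 10.0 and 10.1 CG per 100 nt. Paired-like genes were marked in MDA-468 only, in 5 of 12. OTX1, a forebrain regulator, had 2 sites (1e-11 and 2.5e-20), and ALX4 and VSX1 had 1 each. PRRX1 and PRRX2, which are made in mesenchyme, had no site.

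The NK and related genes made up the largest class, with 34 members of which 18 (52.9%) were marked in MDA-468 and 4 in MCF-10A. NKX2-1, the thyroid and lung regulator, NKX2-8, and PAX9 lie close together on chromosome 14, and all of these neighbours had sites in MDA-468 only. The NKX2-1 site (36986350 to 36986559, p-value 1e-22) was 62.9 kb from the nearest NKX2-8 site. The PAX9 site lay on the other side of NKX2-8, 82.3 kb from its nearest site and 145.8 kb from the NKX2-1 site. DLX1 and DLX2 on chromosome 2, DLX3 and DLX4 on chromosome 17, and NKX2-2 and NKX2-4 on chromosome 20 are further neighbours in which both genes had a site in MDA-468. The heart regulator NKX2-5 had 2 sites, the pancreas regulator NKX6-1 had 1, and EN1 and EN2, which pattern the midbrain, had 1 each, all in MDA-468 only. EMX2, a regulator of cortex and urogenital tract, had 3 sites in MDA-468 and 1 in MCF-10A. BARX, LBX and MSX genes had no site. Of the 4 HOX-like genes EVX1 had 1 MDA-468 site (6.2e-07). BARX, LBX, MSX, GSX and PRRX were the families without a marked member, and with the other unmarked members they come to 52 genes. A missing site does not show that m5C is absent, since a transcript that is not made or not read deeply enough gives none.

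Where a member was marked in both lines, the sites overlapped in some genes and lay in different places in others. Of the 14 MCF-10A sites of members, 8 (57.1%, exact 95% interval 28.9 to 82.3) overlapped an MDA-468 site, against 74.3% of all MCF-10A sites. Of the 76 MDA-468 sites of members, 9 (11.8%, 5.56 to 21.3) overlapped an MCF-10A site, against 47.7% of all MDA-468 sites. The 76 include the sites of 33 members marked in MDA-468 only, which have no MCF-10A site of their own to overlap. This share therefore partly restates that count. In 5 of the 13 members marked in both lines (38.5%, 13.9 to 68.4), no MCF-10A site overlapped an MDA-468 site, while this held for 88 of 2464 protein-coding genes marked in both (3.57%). It also held for 3 of 14 other homeobox genes (21.4%, 4.66 to 50.8) and 1 of 3 HOX genes marked in both, so it was not particular to the members. The members concerned were DLX1, DLX4, LHX9, MEIS1 and NKX2-2, with distances of 1462, 1529, 9869, 3733 and 326 nt to the nearest site of the other line. The MDA-468 site of DLX4 shares 91 nt with a listed site that has no gene identifier and the same p-value. The kit is not stated to keep the strand, so antisense RNA cannot be told apart. In EMX2, POU2F1, POU2F2, POU3F1, POU5F1, POU6F1 and SIX4, 100% of an MDA-468 site lay inside the MCF-10A site, and in SIX3 the overlap was 30.3% of the shorter site.

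**Figure D3:**
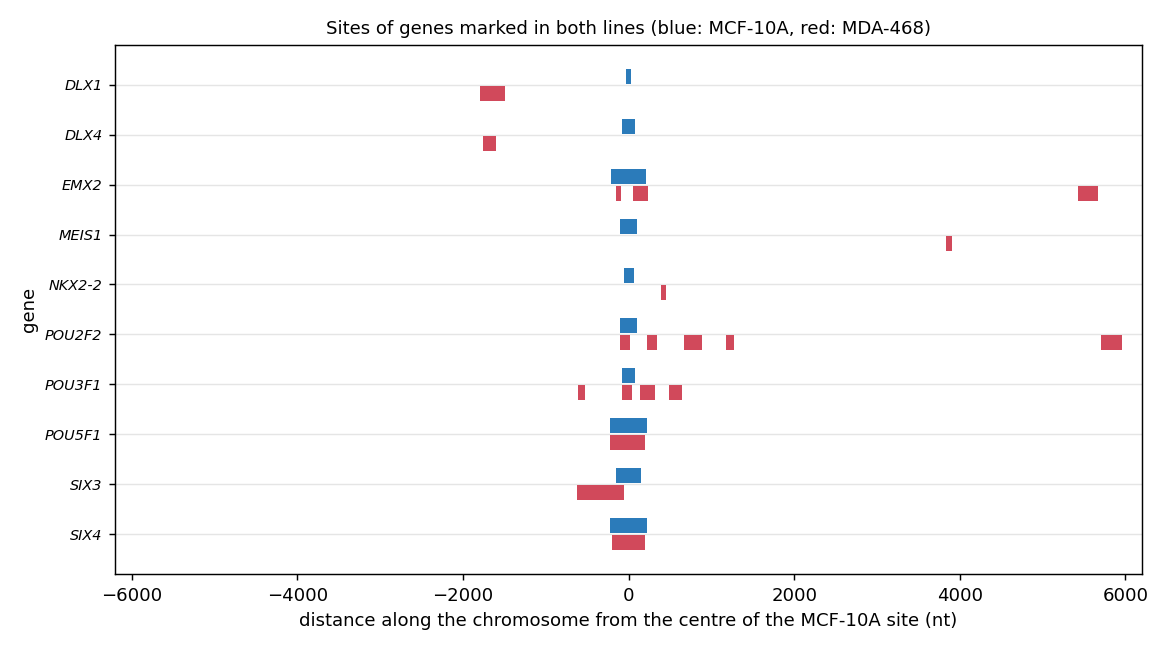
Position of m5C sites in 10 of the 13 genes marked in both lines, those whose sites span at most 6056 nt; the horizontal axis is the distance in nt along the chromosome from the centre of the MCF-10A site (blue), and red bars are MDA-468 sites. In DLX1, DLX4, MEIS1 and NKX2-2 no red bar meets the blue one, while in POU5F1 and SIX4 the bars coincide almost fully.

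Sites of these genes ranked low within their lists. The median p-value of member sites was 1.3e-21 in MCF-10A, where all sites had 2.5e-53, and 1.3e-10 in MDA-468, where all sites had 4e-13. HOX sites ranked low too, with medians of 1.6e-19 over 7 sites in MCF-10A and 7.4e-10 over 27 in MDA-468. Sites of other homeobox genes had a median of 2e-21 in MCF-10A (29 sites), but 7.9e-15 in MDA-468 (39 sites), smaller than that of all sites. Of the 14 member sites in MCF-10A, 3 had a p-value at or below the list's median (POU5F1, SIX4 and POU2F1), and in MDA-468 25 of 76 did. Member sites were also short, with a median of 210 nt against 270 nt in MCF-10A and of 151 nt against 180 nt in MDA-468. In MDA-468, the members' median p-value was closer to that of all sites without a counterpart in the other line (2.6e-10) than to that of all overlapping sites (5e-19). The 67 member sites without a counterpart had a median p-value of 1.9e-10.

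**Figure D4:**
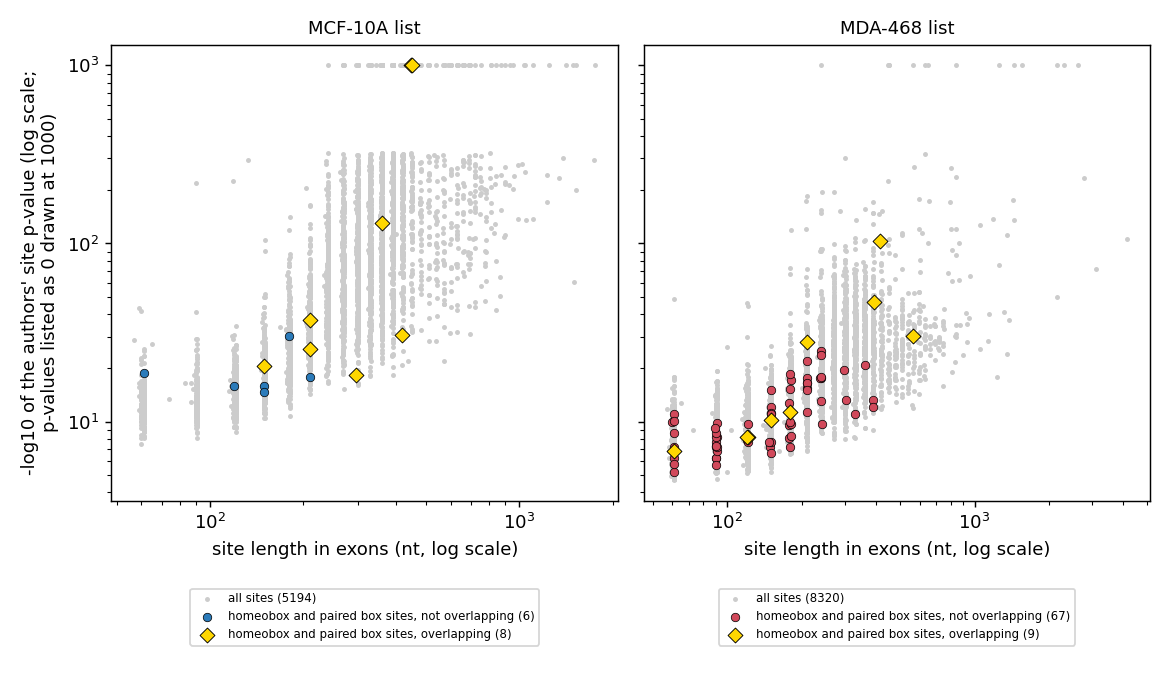
Each point is a site, with its length in exons (nt, log scale) and the -log10 of the authors' p-value (log scale, p-values listed as 0 drawn at 1000) in the MCF-10A list (left) and the MDA-468 list (right); grey points are all sites, circles are homeobox and paired box sites that overlap no site of the other line, and diamonds are those that do. The diamonds of POU5F1 and SIX4 lie on each other at the top of the left panel, and the highest diamond of the right panel is POU5F1 at 1e-103.

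The authors' test of the difference between the lines called a site in few members, and the share called higher in MDA-468 was near the background. A member had a site called higher in MDA-468 in 2 cases (2.02%, against 1.47% of protein-coding genes) and higher in MCF-10A in 2 cases (2.02%, against 5.21%), by the authors' deposited table. IRX1 ranked 1 of 389 sites higher in MDA-468, where the authors' deposited table gives 8.13 as the log2 fold change at 3599969 to 3600239, with a false discovery rate of 2.5e-06 and an 18.4-fold enrichment over input. For a second IRX1 site, at 3599730 to 3599880, the authors' deposited table gives 5.46, a false discovery rate of 0.00028 and a 3.46-fold enrichment. PAX9 has a log2 value of 5.90 at 37132358 to 37132687 by the authors' deposited table, with a false discovery rate of 1.9e-05 and a 7.54-fold enrichment. These 3 sites overlap the MDA-468 list and not the MCF-10A list. For SIX4 the authors' deposited table gives -2.59, a false discovery rate of 1e-12 and a 34.6-fold enrichment. For POU5F1 the authors' deposited table gives -2.10, a false discovery rate of 6.3e-13 and a 32.3-fold enrichment. Both of these sites, higher in MCF-10A, overlap both lists. The title line and the name of this table give opposite directions, and the sign was settled by position: among 389 sites above 0 in the authors' deposited table, 381 overlap an MDA-468 site and 19 an MCF-10A site. Of the 33 members marked in MDA-468 only, 31 have no entry in the authors' deposited table, PAX6 with its 7 sites among them. A site in 1 list alone is therefore not by itself a called difference. The same count was not made for all protein-coding genes marked in MDA-468 only, so the 31 are not shown to be unusual.

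CG content moved with the line in which a member was marked. Members marked in MDA-468 only had a median of 6.07 CG per 100 nt of transcript, from 1.99 in PAX6 to 10.2 in NKX2-8. Members marked in both lines had a median of 2.67, and those with no site 5.25, while all protein-coding genes had 2.36. The members marked in both lines ranged from 0.80 in POU2F1 to 11.95 in POU3F1, so the groups overlap. All protein-coding genes marked in MDA-468 only had 3.62 and those marked in both 1.94. When protein-coding genes were divided into 5 groups of equal size by this value, 59 of the 99 members fell in the most CG-rich group, from 4.24 CG per 100 nt upward. In that group, 31 members (52.5%, exact 95% interval 39.1 to 65.7) had an MDA-468 site and 5 (8.47%, 2.81 to 18.7) an MCF-10A site, against 25.9% and 7.63% of its protein-coding genes. In the other groups, from the CG-richest down, 5 of 18 members (27.8%, against 24.7%), 5 of 9 (55.6%, against 24.8%), 4 of 10 (40%, against 23.7%) and 1 of 3 (33.3%, against 17.8%) had an MDA-468 site. Exact 95% intervals in these other groups were 9.69 to 53.5, 21.2 to 86.3, 12.2 to 73.8 and 0.84 to 90.6. Each of them includes the share of all genes. In MCF-10A the shares of members in the same groups went both ways. They were 5.56% (against 12.9%), 22.2% (against 18.7%), 50% (against 21.0%) and 33.3% (against 18.9%). The part of CG content in these counts was not tested beyond this division.

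**Figure D5:**
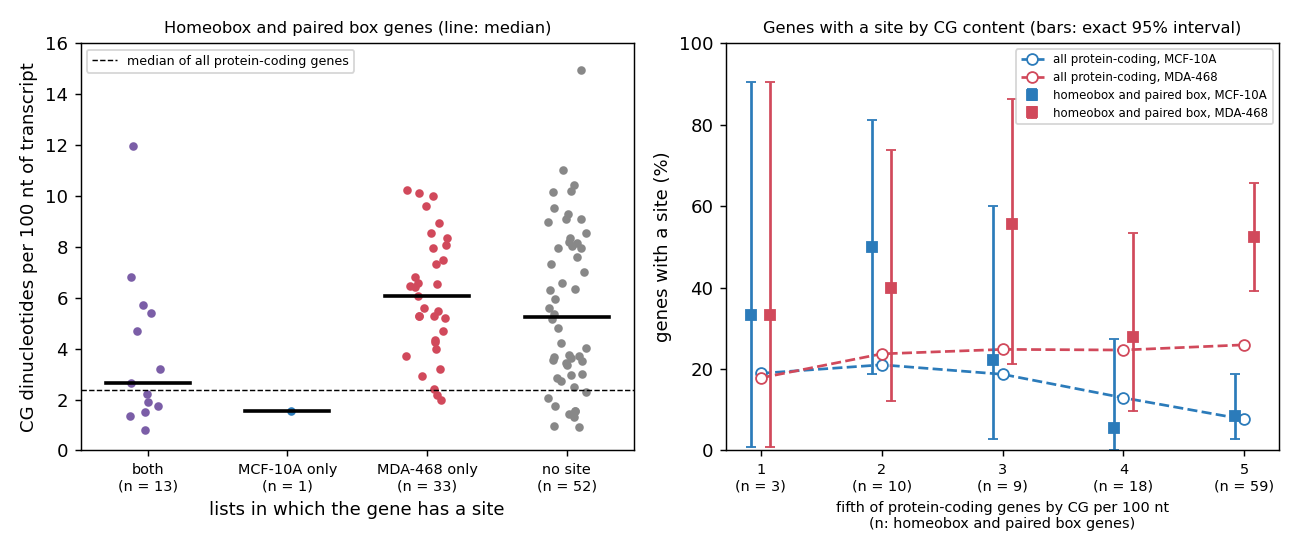
Left, CG dinucleotides per 100 nt of the longest protein-coding transcript for each of the 99 homeobox and paired box genes by the lists in which it has a site, with medians as black lines and the median of all protein-coding genes as a dashed line at 2.36. Right, percent of genes with a site in 5 equal groups of protein-coding genes ordered by that value, with open circles for all genes and squares with exact 95% intervals for homeobox and paired box genes; in group 5, the most CG-rich, the red square stands at 52.5% and the red circle at 25.9%.

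Transcripts of these genes rarely hold a 14-nt word of the Alu repeat that is common among genes marked in both lines. Among 14-nt words with all 4 bases and no long run of one base, the commonest in transcripts of genes marked in both lines was CCTGTAATCCCAGC, in 880 of 2457 transcripts. This word stands in Alu repeats, and its reverse complement GCTGGGATTACAGG stood in 842. Over all protein-coding genes these stood in 8.31% and 8.25% of transcripts. Of the 99 members, 1 held the first, POU5F2 with no site, and 3 held the second. These 3 all have an MCF-10A site: POU2F1 with 2 copies, and POU2F3 and POU5F1 with 1 each. Neither word stands in SIX4, the other member whose site ranked with the best of the MCF-10A list. Only exact matches to the 2 words were counted, so Alu copies that differ in these bases are missed. Whether the sites cover these words was not analysed here.

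HOX genes showed shares close to those of the members, while the share of other homeobox genes was lower in MDA-468 and higher in MCF-10A, differences that were not tested. HOX genes had an MDA-468 site in 18 of 39 (46.2%, 30.1 to 62.8) and an MCF-10A site in 6 (15.4%). Of 80 other homeobox genes, 28 (35.0%, 24.7 to 46.5) had a site in MDA-468 and 20 (25.0%, 16.0 to 35.9) in MCF-10A. Of 29 partner and cofactor genes of these factors, 7 had a site in MDA-468 (24.1%, against 22.4% of protein-coding genes). In MCF-10A 5 had one (17.2%, against 15.2%). Both lines had a site in 4 (13.8%, against 12.3%), which were EYA3, PKNOX1, POU2AF1 and TLE3. These shares were near the background. POU2AF1, the B cell coactivator of POU2F1 and POU2F2, had a log2 fold change of -2.75, EYA3, of the EYA proteins, had -2.16 and SSBP3, a cofactor of LIM homeodomain proteins, had 1.74, by the authors' deposited table. No file measures transcripts, so marker genes could be looked at only by their sites. In MDA-468, 5 of 10 basal (exact 95% interval 18.7 to 81.3%), 2 of 12 luminal, 6 of 12 neural (21.1 to 78.9%) and 1 of 7 fibroblast markers had one, beside 22.4% of all protein-coding genes. In MCF-10A, 1 basal, 4 luminal (9.92 to 65.1%), 4 neural and 1 fibroblast marker had one, beside 15.2%. With intervals this wide, and since a site is not a transcript level, these counts do not tell the lines' identity.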

How the data were processed

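The submitters' processing notes name TopHat and hg19. Per the file headers, the differential table was made with exomePeak from Tophat2 alignments and known genes of UCSC. How replicates were merged, and whether the technical replicates of MCF-10A entered its list, is not stated in any label or header. Each listed site has a p-value deposited by the authors. The differential table holds the authors' enrichment over input (a ratio), their log2 fold change and, on a score scale, log10 p-values and false discovery rates deposited by the authors. No file gives counts or depth per library.

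Entrez identifiers were named through the RefSeq gene table (GRCh38.p14), which held 3677 of 3704 identifiers of the MCF-10A list, 5249 of 5280 of the MDA-468 list and 1523 of 1535 of the table. Coordinates are hg19, counted from 1. A site counted as overlapping when its exon blocks shared at least 1 bp with a site of the other list on the same strand, a procedure tested on simulated data first. Background shares are over all 20056 protein-coding genes, unexpressed ones included. Shares carry exact Clopper-Pearson 95% intervals. Transcript features are from the longest protein-coding GENCODE 29 transcript (GRCh38), found for all 99 members and for 19132 protein-coding genes. The searched word was the commonest of 14 nt with all 4 bases and no run of a base over 4. No hg19 annotation was used here, so sites were not placed in coding or untranslated parts.

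With 1 list per line, no test between the lines was made here. Described singly are members with a differential site, with 2 or more sites in a list, or with a site in both lists. Others are given by class, with examples. Some members and sequences are not reported here. Members and lists were chosen with earlier results of these data known. Alternatives were a stricter p-value (1e-10), lists of equal length, other overlap rules and stricter differential limits. Python 3.11.15, pandas 2.3.3, numpy 2.4.6, scipy 1.17.1 and matplotlib 3.10.9 were used.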

Additional observations from a re-analysis of the deposited data

How the results depend on the processing

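Of 48 alternative values for 16 results, 35 stayed within 1.5 times the reported count or inside its exact 95% interval and 13 did not. Some of the 35 could not change. Thinning the MDA-468 list, for example, leaves the number, share, rank and length of MCF-10A member sites as they were. With sites limited to an authors' p-value of 1e-10 or less, members marked in MCF-10A only came to 3, those marked in MDA-468 only to 17, the share of members with an MDA-468 site to 28.3% (16.2% of protein-coding genes) and MDA-468 member sites to 38. With the MDA-468 list thinned to the length of the other, these values were 4, 16, 26.3% (15.8%) and 35. Members with 2 or more MDA-468 sites came to 8 under each, a comparison chosen after seeing the data. Both alternatives remove MDA-468 sites by construction. With the other homeobox genes added, 7 genes were marked in MCF-10A only and 27 in both. By the authors' deposited table, 1 of the 3 member sites that were higher in MDA-468, in IRX1, had a log10 false discovery rate of -5 or lower. No paired analysis was possible because the files hold merged lists without values per library, and for the same reason no replicate could be left out. Depth is unknown, so the number of sites in either line has no stated precision.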
